A study of Mus musculus with 3 samples.

Results

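Transcripts of liver plasma proteins and metabolism, most of them made mainly by the liver, were followed in RNA from mouse peritoneal macrophages on 3 arrays. They comprise plasma proteins, lipid carriers, metabolic enzymes and a receptor and a transcription factor that act in hepatocytes. The list holds 38 genes, and 37 of them had a probe, out of 27597 genes on the arrays. Pck1 was not analysed here. The genes were selected on these same arrays, because many had a high signal at 35 nmol of chromate and a low one at 70 nmol, so their differences are a description, and none was tested.

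Male Swiss albino mice aged 8 weeks were divided into 3 groups of 10. Every animal received 125 µg of lipopolysaccharide into the peritoneum on day 0, which draws macrophages there. On day 4 control animals were given the tumour-promoting phorbol ester TPA alone (100 ng), and the other groups were given the same TPA together with 35 or 70 nmol of chromate, a hexavalent chromium compound. Cells were washed from the peritoneum 4 days later, and red cells were removed before RNA was isolated. There was 1 one-colour array per group. The sample names give the doses as Cr(VI), whereas the protocol gives them as potassium dichromate. The labels do not settle whether an array carries RNA of 1 animal or of several, and lipoic acid, which the series title names, was given to none of the groups analysed here.

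Hepatocytes secrete most of the proteins of blood plasma, among them albumin, the fibrinogen chains, protease inhibitors and the apolipoproteins that carry lipids. They also hold the enzymes that make glucose, break down amino acids, form urea and oxidise drugs. A small set of transcription factors, including the HNF4 and C/EBP proteins, keeps these genes active together. The peritoneal macrophage is a phagocyte, and most of these genes are not part of its known programme, although transferrin, argininosuccinate synthetase and the mitochondrial arginase are also made outside the liver.

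The labelled cell type was borne out by its markers. All 12 listed macrophage genes were well above background on every array. Adgre1, which encodes F4/80, had levels of 7.67 in control cells, 7.71 at 35 nmol and 7.16 at 70 nmol, and the endotoxin co-receptor Cd14 had 6.5 in control cells, 6.41 at 35 nmol and 6.25 at 70 nmol. A level here is the log2 processed signal of a probe minus the 75th percentile of its array, so that 0 stands at that percentile. Of 27597 genes, 50.6% were well above background in control cells, 47.8% at 35 nmol and 47.0% at 70 nmol. The lowest level well above background was -3.65 in control cells, -3.40 at 35 nmol and -3.26 at 70 nmol. Single arrays carry no replicate check, their number limits the precision, and group and position on the shared slide cannot be told apart. In RNA from a whole lavage, fewer cells of a type and less RNA per cell cannot be told apart either.

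The stretches before the transcription starts are shown for the genes of secreted proteins that the results turn on. Any bearing of these sequences on the levels was not tested. Each run holds the 150 bases upstream of an annotated start, 5′ to 3′ along the gene's strand, from RefSeq on build GRCm38.p6. Capitals mark exact matches on either strand to a site for HNF4 (CAAAGTNCA) or a site for C/EBP (TTGCNNAA).
Alb (chr5:90460720-90460869, plus strand): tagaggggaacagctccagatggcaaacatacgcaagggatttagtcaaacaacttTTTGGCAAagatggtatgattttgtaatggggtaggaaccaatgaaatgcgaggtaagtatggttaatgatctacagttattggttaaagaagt
Ahsg (chr16:22891865-22892014, plus strand): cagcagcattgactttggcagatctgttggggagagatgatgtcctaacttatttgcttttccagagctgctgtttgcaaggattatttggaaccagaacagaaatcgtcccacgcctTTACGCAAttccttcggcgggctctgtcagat
Serpina1d (chr12:103773634-103773783, minus strand): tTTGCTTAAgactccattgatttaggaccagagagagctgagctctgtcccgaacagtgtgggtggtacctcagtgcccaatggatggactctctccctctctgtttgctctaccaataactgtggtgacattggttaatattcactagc
Fga (chr3:83026003-83026152, plus strand): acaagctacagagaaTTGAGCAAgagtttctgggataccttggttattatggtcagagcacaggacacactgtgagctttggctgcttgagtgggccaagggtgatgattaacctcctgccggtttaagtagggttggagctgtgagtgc
Fgb (chr3:83049864-83050013, minus strand): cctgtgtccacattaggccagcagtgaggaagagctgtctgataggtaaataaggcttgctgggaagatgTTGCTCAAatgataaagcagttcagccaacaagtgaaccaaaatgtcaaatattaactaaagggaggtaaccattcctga
Fgg (chr3:83007574-83007723, plus strand): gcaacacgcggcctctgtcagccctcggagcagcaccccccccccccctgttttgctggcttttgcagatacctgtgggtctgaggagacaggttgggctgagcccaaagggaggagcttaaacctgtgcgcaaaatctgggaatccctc
Ambp (chr4:63154173-63154322, minus strand): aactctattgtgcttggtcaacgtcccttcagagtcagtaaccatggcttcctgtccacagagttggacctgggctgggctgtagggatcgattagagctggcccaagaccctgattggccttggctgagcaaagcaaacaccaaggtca
Alb, Ahsg, Serpina1d, Fga and Fgb each held a match to the C/EBP letters. Fgg and Ambp showed no match in the printed stretch, which says only that these letters are not there.

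Promoters were found in the RefSeq table for 29 of the genes, as windows of 300 bases around the start. The C/EBP letters occurred in 12 of them (41.4%), against 3298 of 27025 genes overall (12.2%). The HNF4 letters occurred in 2 (6.90%), the cytochrome genes Cyp3a11 and Cyp2d26, against 444 genes overall (1.64%). No match of one motif overlapped another within these windows. A match is a run of letters and was not read as a bound site.

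The liver transcripts were present in control cells, more abundant at 35 nmol and mostly not seen at 70 nmol. In control cells 32 of the 37 (86.5%) were well above background, or seen, at 35 nmol 34 (91.9%) and at 70 nmol 9 (24.3%). Of the 32 seen in control cells, 23 were not well above background at 70 nmol, where 9.3% of all genes seen in control cells were lost in the same way. Of the 34 seen at 35 nmol, 25 were not seen at 70 nmol, with 5.19% over all genes. Only G6pc, glucose-6-phosphatase of glucose release, was seen in control cells and not at 35 nmol, with 7.98% over all genes. Seen on all 3 arrays were Alb, Serpina3m, Trf, Ambp, Cyp2d26, Fbp1, Arg2, Ass1 and Gcgr. The thyroid hormone carrier Ttr and the transcription factor Hnf4a were well above background on none.

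**Figure D1:**
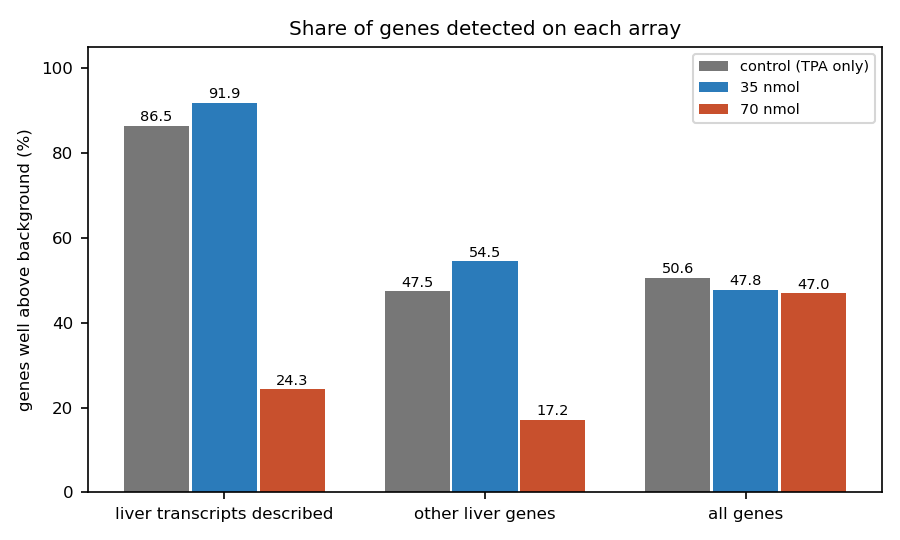
Bars give the percentage of genes well above background on each array (vertical axis, %), for the 37 liver transcripts described, 99 other liver genes and all 27597 genes, in control cells, at 35 nmol and at 70 nmol. The share of the liver transcripts was 86.5%, 91.9% and 24.3%, while that of all genes stayed between 47.0% and 50.6%.

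Bright transcripts were among those lost. In the whole array only 3 of 8025 genes (0.0374%) that stood at or above level 0 in control cells were not well above background at 70 nmol. These were Serpina1d, Ahsg and Fgb, all 3 of them plasma proteins of the list, which had 8 genes at that level. Starting from 35 nmol, 19 of 8056 genes (0.236%) at or above level 0 were not seen at 70 nmol. Of the 19, 12 belonged to the list, out of 20 listed genes at that level.

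Albumin, the most abundant protein of plasma and encoded by Alb, had levels of 3.19 in control cells, 4.75 at 35 nmol and -2.90 at 70 nmol. Its probe lies at chr5:91547772-91547831 of build mm8, the build of the array files. Against control cells Alb was 2.94-fold higher at 35 nmol (log2 difference 1.56) and 68.4-fold lower at 70 nmol (-6.09). Between the doses it was 201-fold lower at 70 nmol than at 35 nmol. The scanner software's own error of these log2 differences was 0.20 to 0.30, and it leaves out any spread between animals.

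**Figure D2:**
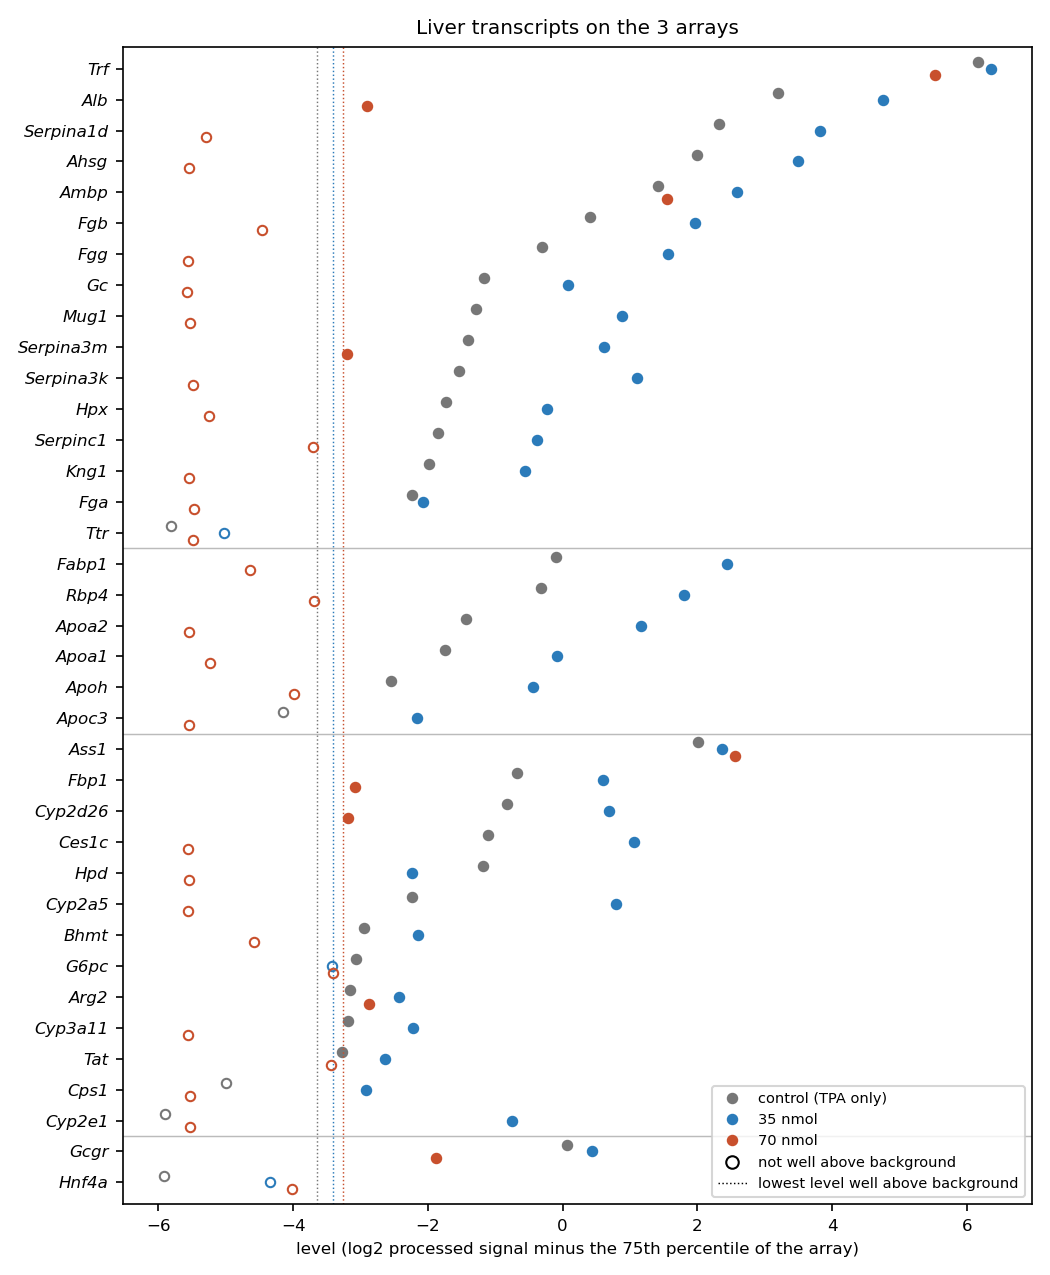
Points give the level of each of the 37 genes (horizontal axis, log2 processed signal minus the 75th percentile of the array) in control cells, at 35 nmol and at 70 nmol. Genes are set out by role from secreted proteins at the top to Gcgr and Hnf4a at the bottom, and open circles were not well above background. At 35 nmol 34 of the 37 points are filled, and at 70 nmol 9.

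Fetuin-A, a plasma carrier of calcium phosphate encoded by Ahsg, had levels of 2.00 in control cells and 3.5 at 35 nmol. Serpina1d, one of the mouse alpha-1-antitrypsin genes, had 2.32 in control cells and 3.82 at 35 nmol. Neither was well above background at 70 nmol. The log2 difference at 35 nmol was 1.5 for both. At 70 nmol Ahsg was at least 38.1-fold lower than in control cells, and Serpina1d at least 47.7-fold. For such a bound the dim array stands at its lowest signal well above background, or at the dim probe's signal where that is higher.

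The 3 chains of fibrinogen, the clot-forming protein, did not behave as one. Fgb had levels of 0.41 in control cells and 1.97 at 35 nmol, a difference of 1.56. Fgg had -0.31 in control cells and 1.57 at 35 nmol, a difference of 1.88. Fga had -2.23 in control cells and -2.08 at 35 nmol, a difference of only 0.15 with a scanner error of 0.28. The chains are assembled in equal numbers, and the 3 genes sit side by side. Their probes on chromosome 3 of mm8 are 16.8 kb apart from Fgg to Fga and 10.6 kb apart from Fga to Fgb. None of the chains was well above background at 70 nmol. Fgb was at least 12.7-fold lower there than in control cells, Fgg at least 7.73-fold and Fga at least 2.03-fold.

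Protease inhibitors were higher at 35 nmol, some by more than albumin. Serpina3k, a mouse relative of antichymotrypsin, had levels of -1.54 in control cells and 1.11 at 35 nmol. Serpina3m of the same family had -1.40 in control cells, 0.61 at 35 nmol and -3.20 at 70 nmol. Mug1, a murinoglobulin that traps proteases, had -1.29 in control cells and 0.89 at 35 nmol. Log2 differences at 35 nmol were thus 2.64 for Serpina3k, 2.01 for Serpina3m and 2.18 for Mug1. Antithrombin, the thrombin inhibitor encoded by Serpinc1, had -1.85 in control cells and -0.38 at 35 nmol, a difference of 1.47. At 70 nmol Serpina3m was lower than in control cells by a log2 difference of -1.80, and the others were at least 3.29-fold (Serpina3k), 3.90-fold (Mug1) and 2.65-fold (Serpinc1) lower.

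Carriers and precursors in plasma followed the same order of groups, Trf only within 2-fold of control cells. Ambp was the exception, since it was not lower at 70 nmol than in control cells. The haem carrier hemopexin, Hpx, had levels of -1.72 in control cells and -0.23 at 35 nmol. Kininogen, Kng1, the source of bradykinin, had -1.98 in control cells and -0.56 at 35 nmol. The vitamin D carrier Gc had -1.17 in control cells and 0.08 at 35 nmol. None of the 3 was seen at 70 nmol, where each was at least 2.42-fold lower than in control cells. Transferrin, the iron carrier encoded by Trf, had 6.17 in control cells, 6.35 at 35 nmol and 5.53 at 70 nmol, so its differences from control stayed within 2-fold, at 0.19 for 35 nmol and -0.64 for 70 nmol. Ambp, the precursor of alpha-1-microglobulin and bikunin, had 1.41 in control cells, 2.59 at 35 nmol and 1.55 at 70 nmol. It was 1.18 higher at 35 nmol than in control cells and differed by 0.14 at 70 nmol, a value within its scanner error of 0.20.

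All 6 lipid carriers were at least 2-fold higher at 35 nmol than in control cells, and none was well above background at 70 nmol. Apoa2, a protein of high-density lipoprotein, had levels of -1.43 in control cells and 1.17 at 35 nmol. Fabp1, the liver fatty acid binding protein, had -0.09 in control cells and 2.44 at 35 nmol. Rbp4, which carries retinol in plasma, had -0.32 in control cells and 1.80 at 35 nmol. The difference at 35 nmol was 2.60 for Apoa2, 2.53 for Fabp1 and 2.12 for Rbp4. Apoh, which binds phospholipid, had -2.55 in control cells and -0.44 at 35 nmol. Apoc3, an inhibitor of triglyceride clearance, was seen only at 35 nmol, with a level of -2.16, at least 2.79-fold higher than in control cells. At 70 nmol Fabp1 was at least 8.95-fold lower than in control cells, Rbp4 at least 7.66-fold, Apoa2 at least 3.53-fold and Apoh at least 1.63-fold.

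Apoa1, the main protein of high-density lipoprotein, was printed as 10 spots of 1 probe, which shows the spread on an array. Its spots ranged over -1.94 to -1.58 in control cells (SD 0.12) and over -0.16 to -0.04 at 35 nmol (SD 0.036). At 70 nmol 0 of the 9 spots kept were well above background, with values of -5.58 to -4.07, and Apoa1 was at least 2.84-fold lower than in control cells. The ranges of the 3 arrays did not overlap, and the difference of 1.67 at 35 nmol was larger than the spread between spots, which is technical. Apoa1 and Apoc3 are neighbours, with probes 3.37 kb apart on chromosome 9 of mm8.

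Enzymes varied more among themselves than secreted proteins, with an SD over measured genes of 1.09 against 0.65 for the log2 difference at 35 nmol. Cytochrome P450 genes encode the oxidases of drugs and steroids. Cyp2a5 had levels of -2.24 in control cells and 0.79 at 35 nmol, a difference of 3.02. Cyp2d26 had -0.82 in control cells, 0.69 at 35 nmol and -3.18 at 70 nmol, which gave differences from control of 1.52 at 35 nmol and -2.36 at 70 nmol. Cyp2e1, which oxidises ethanol, was seen only at 35 nmol, at -0.74, and was at least 7.48-fold higher than in control cells. Cyp3a11 had -3.18 in control cells and -2.22 at 35 nmol, and its difference of 0.96 fell just short of 2-fold. Ces1c, a carboxylesterase secreted into mouse plasma, had -1.11 in control cells and 1.06 at 35 nmol, and at 70 nmol it was at least 4.43-fold lower than in control cells. The bound for Cyp2a5 at 70 nmol was 2.02-fold lower.

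Genes of glucose output and amino acid breakdown included Hpd, the 1 gene that was at least 2-fold lower at 35 nmol than in control cells. Fbp1, fructose bisphosphatase of gluconeogenesis, had levels of -0.68 in control cells, 0.59 at 35 nmol and -3.08 at 70 nmol. Its differences from control were 1.28 at 35 nmol and -2.40 at 70 nmol. G6pc had -3.07 in control cells and was not well above background at either dose, at least 1.26-fold lower at 35 nmol. Hpd, a dioxygenase of tyrosine breakdown, had -1.18 in control cells and -2.23 at 35 nmol, a difference of -1.05. At 70 nmol it was not seen, at least 4.22-fold lower than in control cells. Tat, the aminotransferase that starts tyrosine breakdown, had -3.28 in control cells and -2.64 at 35 nmol, close to the background limit on both arrays. Bhmt, which remethylates homocysteine, had -2.95 in control cells and -2.14 at 35 nmol.

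Of the urea cycle and arginine genes, Ass1 and Arg2 were still seen at 70 nmol. Ass1, argininosuccinate synthetase, had levels of 2.00 in control cells, 2.36 at 35 nmol and 2.56 at 70 nmol, and its second probe gave nearly the same differences from control (0.41 at 35 nmol and 0.54 at 70 nmol, against 0.36 and 0.55). Arg2, the mitochondrial arginase, had -3.15 in control cells, -2.44 at 35 nmol and -2.87 at 70 nmol. Neither differed 2-fold between any arrays. Cps1, the mitochondrial enzyme that begins the urea cycle in hepatocytes, was seen only at 35 nmol, at -2.92.

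The glucagon receptor Gcgr, through which hepatocytes raise glucose output, stood in the same order as most plasma proteins, with a smaller difference at 35 nmol. It had levels of 0.06 in control cells, 0.44 at 35 nmol and -1.88 at 70 nmol. Its difference from control was 0.38 at 35 nmol and -1.94 at 70 nmol, with scanner errors of 0.21 and 0.23. Thus it was more than 2-fold lower at 70 nmol than in control cells and less than 2-fold higher at 35 nmol.

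Counted over the list, 24 of 35 genes that could be compared were at least 2-fold higher at 35 nmol than in control cells, 22 of them measured on both arrays, and 1 (Hpd, measured) was lower. Over all 14178 genes compared, 1.9% were higher and 1.17% lower, which is 269 and 166 genes, or 142 and 486 when the arrays were scaled on spike-in RNA. Over genes measured on both arrays, 1.12% were higher and 0.299% lower. By role the higher genes were 13 of 15 secreted proteins, 6 of 6 lipid carriers, 5 of 13 enzymes and 0 of 1 regulator. The median log2 difference of the 31 measured genes was 1.5, with a range of -1.05 to 3.02 (SD 0.87 over genes), beside 0.04 for all measured genes. Lipid carriers had a median of 2.12, secreted proteins 1.5 and enzymes 0.89.

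At 70 nmol against control cells, 23 of 32 genes were at least 2-fold lower and 0 were higher, with 2.03% of 14147 genes lower and 2.25% higher overall. These were 287 lower and 319 higher genes, or 650 and 159 when the arrays were scaled on spike-in RNA. Of the 23, only Alb, Serpina3m, Cyp2d26, Fbp1 and Gcgr were measured on both arrays, and 18 are bounds. Of all genes measured on both arrays, 1.08% were lower and 1.63% higher. With normexp background correction the 23 became 14, without Apoa1, Apoa2, Cyp2a5, Fga, Hpx, Kng1, Serpina3k, Serpina3m and Serpinc1. Another 5 genes, Apoh, Cyp3a11, G6pc, Tat and Bhmt, were not well above background at 70 nmol but lay too low in control cells for a bound of 2-fold. Trf, Ambp, Arg2 and Ass1 were measured on both arrays and differed by less than 2-fold. Over the 9 genes measured on both arrays the median difference was -1.80, beside 0.04 for all genes.

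**Figure D3:**
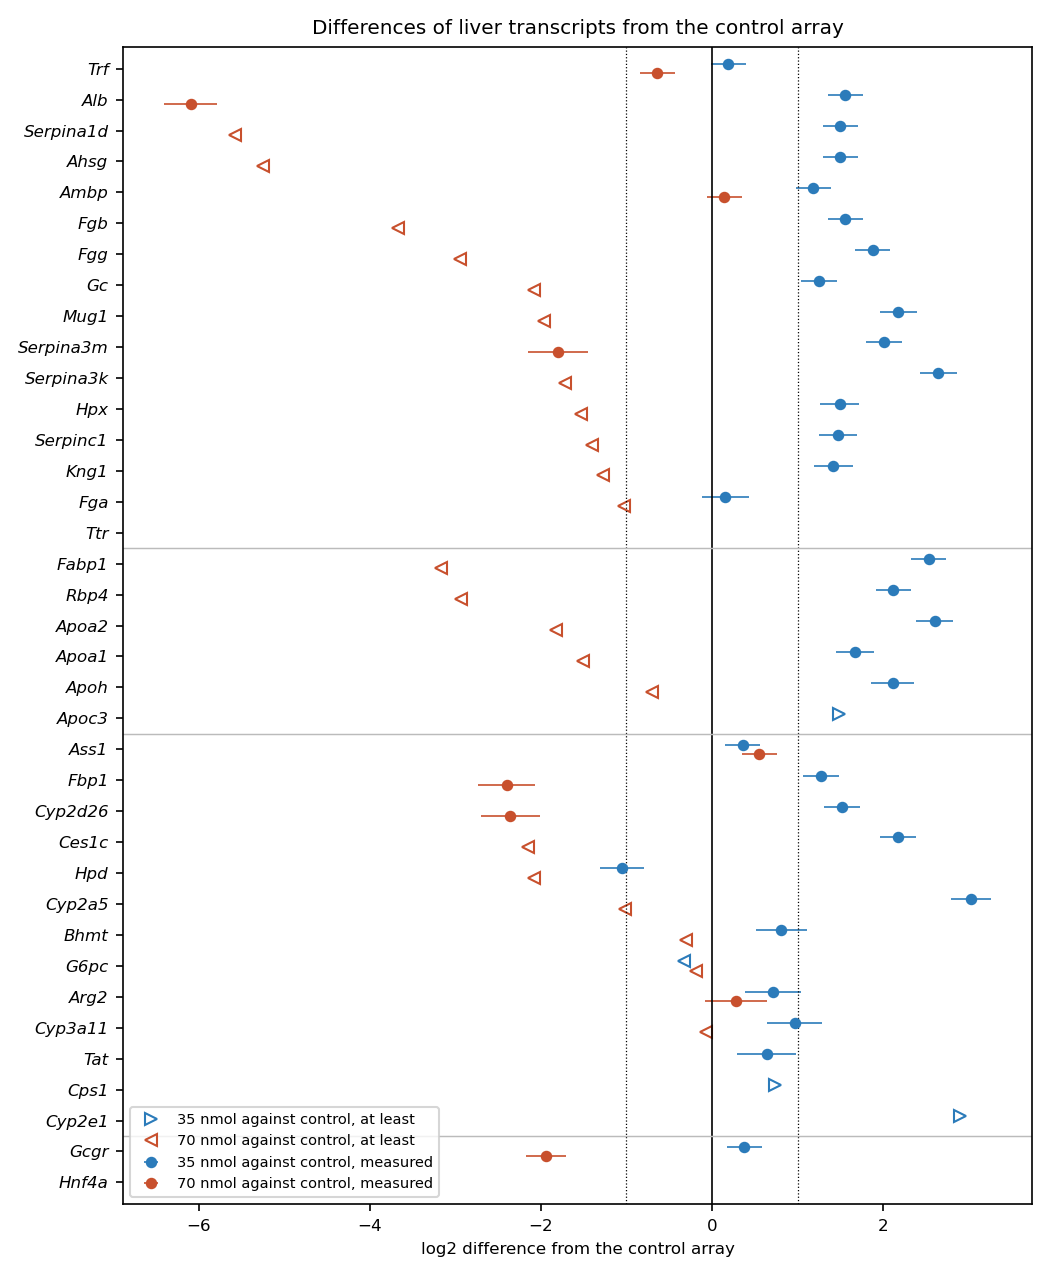
Each gene's log2 difference from the control array (horizontal axis) is drawn at 35 nmol and at 70 nmol. Filled points with bars are measured values with the scanner software's error, open triangles are bounds, and dotted lines mark 2-fold. At 35 nmol 24 genes lie beyond 2-fold on the high side, and at 70 nmol 23 lie beyond it on the low side.

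Between the doses, 29 of 34 genes were at least 2-fold lower at 70 nmol than at 35 nmol and 0 were higher, with 1.79% of 13538 genes lower and 1.58% higher overall. Only 6 of the 29 were measured on both arrays, where 0.718% of all genes so measured were lower and 0.92% higher. Trf, Arg2 and Ass1 were measured on both arrays and differed by less than 2-fold. Tat and Cps1 were not well above background at 70 nmol but lay too low at 35 nmol for a bound of 2-fold. All 3 comparisons use the same arrays in pairs, so their counts are not separate evidence. A gene also enters a comparison through either array, so a gene seen on 1 of them could only differ towards it.

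The joint order, at least 2-fold higher at 35 nmol than in control cells and at least 2-fold lower at 70 nmol than at 35 nmol, was met by 24 listed genes out of 35. In the whole array 156 of 14562 genes (1.07%) met it, and 106 of these were in none of the gene lists used here. For 20 of the 24, the level at 70 nmol was also at least 2-fold below that of control cells.

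**Figure D4:**
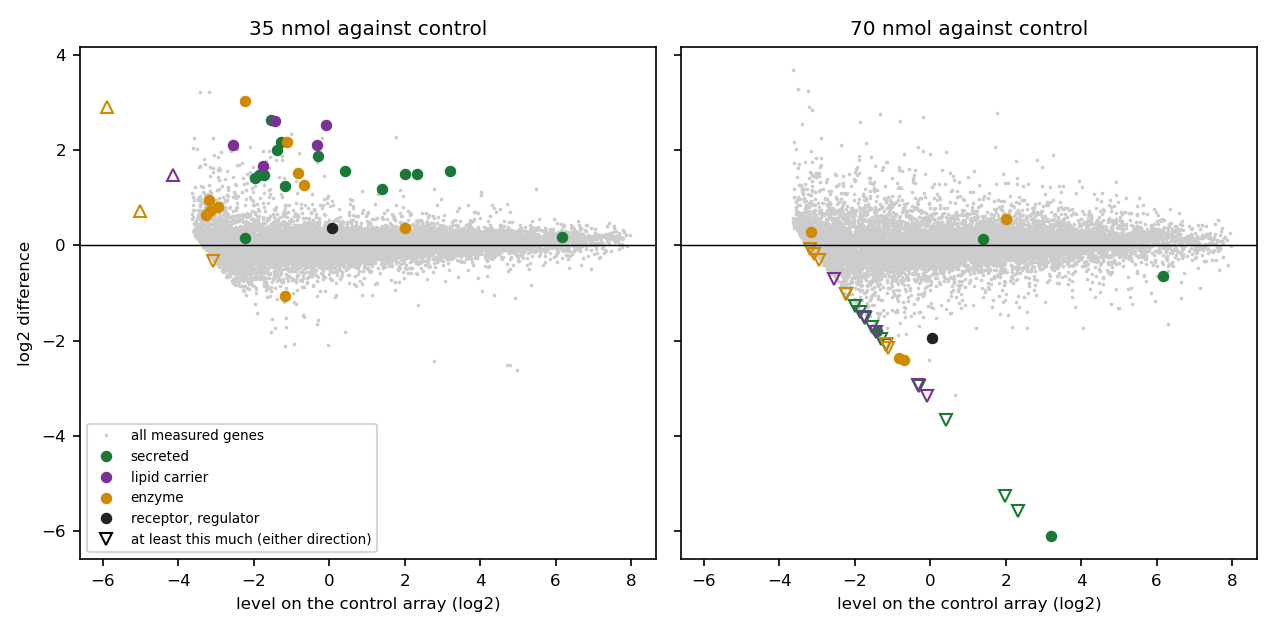
The log2 difference from control (vertical axis) is set against the level on the control array (horizontal axis, log2), at 35 nmol on the left and 70 nmol on the right. Grey points are all genes measured on both arrays, coloured points are the liver transcripts by role, and open triangles are bounds. At 70 nmol Alb lies at -6.09, the lowest of all measured genes on that panel.

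Several genes had more than 1 probe well above background. At 35 nmol against control cells the pairs of probes gave 2.64 and 3.36 for Serpina3k, 2.17 and 2.07 for Ces1c and 3.02 and 1.95 for Cyp2a5. Those of Serpinc1 gave 1.47 and 0.23. The probes of Cyp2a5 and of Serpinc1 thus differed from each other by more than 2-fold. Serpina1d, Serpina3k, Serpina3m, Mug1, Ces1c, Cyp2a5, Cyp2d26 and Cyp3a11 have close mouse relatives whose RNA their probes may also bind. Without these 8 genes, a choice made after seeing the data, 17 of 27 were at least 2-fold higher at 35 nmol than in control cells. Over all genes 1.9% were. At least 2-fold lower at 70 nmol than in control cells were 16 of 24, with 2.03% over all genes.

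Neighbouring genes had both like and unlike values. Ahsg and Kng1 have probes 178 kb apart on chromosome 16 of mm8 and differed by 1.5 and 1.42 at 35 nmol. Serpina3k and Serpina3m, 48.6 kb apart on chromosome 12, differed by 2.64 and 2.01, whereas Fga differed by 0.15 between neighbours at 1.88 and 1.56.

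A further list of 101 liver genes, 99 of them on the arrays, shows how far the order reached beyond the genes above. In control cells 47 (47.5%) were well above background, at 35 nmol 54 (54.5%) and at 70 nmol 17 (17.2%). Over all genes the shares were 50.6%, 47.8% and 47.0%. At 35 nmol 30 of 57 were at least 2-fold higher than in control cells and 0 were lower, with 1.9% and 1.17% over all genes. At 70 nmol 14 of 49 were at least 2-fold lower than in control cells and 2 were higher, with 2.03% and 2.25% over all genes. The joint order was met by 26 of 60, with 1.07% over all genes.

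Clotting and complement genes of that list were mostly higher at 35 nmol. F11, C8a, C8b, C9 and F13b were above background on no array. Prothrombin, F2, had levels of -1.40 in control cells and 0.40 at 35 nmol, and the anticoagulant protein C gene Proc had -1.88 in control cells and -0.40 at 35 nmol. The lectin Mbl2 had -2.02 in control cells and -0.37 at 35 nmol. At 70 nmol none of them was seen. Among 10 genes of this group that could be compared, 9 were at least 2-fold higher at 35 nmol than in control cells. Over all genes 1.9% were. At 70 nmol 3 of 8 were at least 2-fold lower than in control cells, all 3 of them bounds, with 2.03% over all genes. Clotting factor IX, F9, was the 1 gene of the group measured at 70 nmol. It differed from control cells by 0.14 at 35 nmol and -0.05 at 70 nmol. The rest of the 8 were not seen at 70 nmol but lay too low in control cells for a bound of 2-fold. Among the carriers and inhibitors, fetuin-B, Fetub, had -1.77 in control cells and 0.21 at 35 nmol.

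Other listed liver genes varied. The asialoglycoprotein receptor genes Asgr1 and Asgr2, which clear glycoproteins from plasma, met the joint order. They were 1.19 and 1.18 higher at 35 nmol than in control cells, and -1.69 and -1.44 at 70 nmol against 35 nmol. Both were measured at 70 nmol, where they stood within 2-fold of control cells (-0.50 for Asgr1 and -0.26 for Asgr2). Several others did not meet it. Haptoglobin, Hp, which binds free haemoglobin, had levels of 7.29 in control cells, 7.13 at 35 nmol and 7.26 at 70 nmol. Hal, the histidase of histidine breakdown, was 1.34 higher at 70 nmol than in control cells and differed by 0.01 at 35 nmol. Ketohexokinase, Khk, had 5.73 in control cells, 5.97 at 35 nmol and 5.33 at 70 nmol, in the same order but within 2-fold throughout. Baat, which joins bile acids to amino acids, was seen only at 70 nmol, at -1.89, and by 1 probe. Its second probe was well above background on no array and had -5.57 at 70 nmol.

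Transcription factors of hepatocytes were mostly not seen. Foxa2, Foxa3, Nr1h4, Nr0b2, Nr5a2 and Onecut1 were well above background on no array, as was Hnf4a. Cebpa, which myeloid cells also use, had levels of 3.31 in control cells, 3.51 at 35 nmol and 3.84 at 70 nmol. Of the 4 factors seen on an array, Cebpa and Nr1i3 were measured on every array and differed by less than 2-fold in each comparison. Foxa1 and Prox1 were seen only in control cells, at -2.92 and -3.62, too low there for a bound of 2-fold.

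Markers of other tissues that a peritoneal wash could carry were set beside these values. Summed signal, in units of the 75th percentile of the array, was 97.4 in control cells, 156 at 35 nmol and 49.6 at 70 nmol for the secreted proteins. Trf carried much of it, and without Trf the other 15 genes summed to 25.6 in control cells, 74.3 at 35 nmol and 3.53 at 70 nmol. Enzymes without Ass1, their brightest gene, summed to 2.93 in control cells, 8.76 at 35 nmol and 0.721 at 70 nmol. Lipid carriers summed to 2.63 in control cells and 13.1 at 35 nmol, and with none of them well above background at 70 nmol they have no sum there. Leaving out the brightest gene of a list was a choice made after seeing the data.

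Of the 12 intestinal epithelium genes, 2 were seen in control cells, 4 at 35 nmol and 1 at 70 nmol. Over all genes 50.6%, 47.8% and 47.0% were seen. Vil1, Cdh17 and Muc2 were above background nowhere. Fabp2, an intestinal fatty acid binding protein, and Apoa4, which mouse liver also makes, were seen only at 35 nmol, at -3.16 and -3.38, close to the background limit. The list summed to 2.55 in control cells, 2.53 at 35 nmol and 2.34 at 70 nmol, mostly from Lgals4. Without Lgals4 it summed to 0.418 in control cells, with 1 gene seen, and to 0.653 at 35 nmol, with 3 seen. At 70 nmol 0 of its other genes were seen, so they have no sum there. These sums take in the signal of genes not seen. The list's number of genes seen ran in the same order as that of the liver transcripts, but through genes close to the background limit. Lgals4, the 1 gene seen at 70 nmol, differed by less than 2-fold in every comparison.

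Kidney tubule genes summed to 33.2 in control cells and 29.1 at either dose, mostly from Napsa, and without Napsa to 1.16 in control cells, 1.03 at 35 nmol and 0.858 at 70 nmol. Slc34a1, a phosphate transporter, was the 1 of 4 seen that differed 2-fold, 2.21-fold lower at 70 nmol than in control cells and 2.07-fold lower than at 35 nmol. Umod and Lrp2 were above background nowhere. Pancreatic acinar genes summed to 0.569 in control cells, 0.572 at 35 nmol and 0.6 at 70 nmol. Of this, genes well above background gave 0.297 in control cells, 0.18 at 35 nmol and 0.366 at 70 nmol. Adipocyte genes summed to 5.86 in control cells, 7.23 at 35 nmol and 6.68 at 70 nmol, with Adipoq above background nowhere.

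Red cell, connective tissue and some macrophage genes moved between the arrays. The 8 erythroid genes summed to 67.1 in control cells, 11.7 at 35 nmol and 35.4 at 70 nmol, with 4 of 8 above background on each array. The 10 genes of mesothelium and fibroblasts summed to 10.1 in control cells, 11.4 at 35 nmol and 33.5 at 70 nmol, with 6 above background in control cells, 6 at 35 nmol and 8 at 70 nmol. The platelet gene Pf4 was the 1 of 6 seen, and that list summed to 74.5 in control cells, 83.9 at 35 nmol and 88.9 at 70 nmol. Macrophage genes summed to 961 in control cells, 1108 at 35 nmol and 1031 at 70 nmol, a sum held up by Ctsd and Lyz2, whose probes were saturated. Without these it was 478 in control cells, 483 at 35 nmol and 429 at 70 nmol. Of the 10 others, 2 were at least 2-fold higher at 70 nmol than in control cells, by 1.59 for the mannose receptor Mrc1 and 1.15 for the haemoglobin scavenger receptor Cd163, and at 35 nmol none was. The part that cells or RNA of other tissues, liver included, had in the values was not tested.

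**Figure D5:**
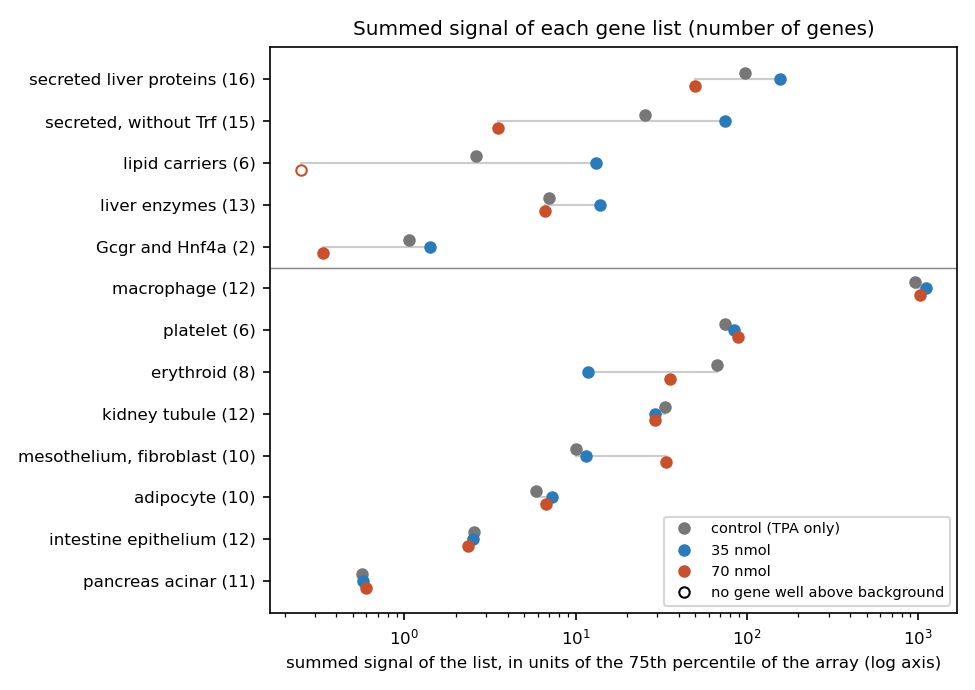
Each point is the summed signal of a gene list on 1 array, in units of the 75th percentile of that array on a log axis, with the number of genes beside the list's name. The liver transcripts stand above the line, the secreted proteins also without Trf, and 8 marker lists below it. The open circle marks the lipid carriers at 70 nmol, where none was well above background and the point is background signal. Without Trf the secreted proteins spanned 3.53 at 70 nmol to 74.3 at 35 nmol.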

How the data were processed

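RNA of each group was hybridised to 1 one-colour Agilent mouse array. The deposited intensity values came from Feature Extraction 10.5.1.1 with background subtracted, per the file headers, and probe positions are on mm8. The authors also deposited a table of log2 values, which equalled the log2 processed signal minus 1 constant per array (8.00, 7.61 and 7.67 for control, 35 nmol and 70 nmol) within 0.01 for 99.8% of the 41174 probes on each array. Its column medians were -3.60, -3.74 and -3.78.

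Here the log2 processed signal was scaled on the 75th percentile of the 43379 spots of an array that are not controls. Spots of a probe were averaged after outliers were left out. Probes were named by accession (24375), symbol (6301) or synonym (2426) in RefSeq GRCm38.p6, and 8072 kept the file's name. A gene took its brightest probe. Well above background is the scanner software's flag, with a multiple of 13 in the headers. A difference was called at 2-fold.

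The genes and all lists were chosen with earlier results of these data known. Every listed liver transcript is named, with up to 4 of the brightest genes of each other list, markers seen on no array, and genes on which a result turns. A few genes are not reported here. Single arrays allowed no test, and no p-value is given. The steps were tested on simulated data. R 4.3.3, limma 3.58.1, Python 3.11.15, numpy 2.4.6, pandas 2.3.3 and matplotlib 3.10.9 were used. The results were recomputed with cyclic loess, quantile normalisation, normexp background correction (offset 50), scaling on spike-in RNA (4 of 10 probes used) or on the median detected probe, the value table, looser and stricter filters on dim probes, the mean over probes, and thresholds of 1.5-fold and 3-fold. Leaving out close gene families, and leaving bright or saturated genes out of list sums, were added after seeing the data.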

Additional observations from a re-analysis of the deposited data

Results flagged for a closer look

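For 20 of the liver transcripts and 6 other liver genes, the array at 35 nmol was at least 2-fold above the control array and the array at 70 nmol at least 2-fold below it. The 2 doses thus moved in opposite directions from the same control array. The difference between doses was not tested, since each group has 1 array. It is given here as the log2 difference of 70 nmol minus 35 nmol.

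Among secreted proteins it was -7.65 for Alb and -3.81 for Serpina3m, both measured on all 3 arrays. The rest were bounds, because the gene was not well above background at 70 nmol. These bounds were -6.75 for Ahsg, -5.22 for Fgb, -4.83 for Fgg, -7.07 for Serpina1d, -4.36 for Serpina3k, -2.88 for Serpinc1, -3.02 for Hpx, -2.69 for Kng1, -4.14 for Mug1 and -3.33 for Gc. Lipid carriers had bounds of -3.18 for Apoa1, -4.42 for Apoa2, -5.05 for Rbp4 and -5.70 for Fabp1. Of the enzymes, Cyp2d26 at -3.88 and Fbp1 at -3.68 were measured, and Ces1c at -4.32 and Cyp2a5 at -4.04 were bounds.

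The other liver genes were all bounds. They were -3.66 for F2, -2.89 for Mbl2, -2.85 for Proc, -3.46 for Fetub, -2.99 for the adhesion protein gene Vtn and -3.05 for the urate oxidase gene Uox.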

How the results depend on the processing

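The 77 differences of the liver transcripts that passed 2-fold gave 693 values under the alternatives. All 693 kept their sign, and 638 still passed 2-fold. Bounds made up 18 of the differences at 70 nmol against control, 2 at 35 nmol against control and 23 between doses. A bound can only point towards the array where the gene is seen. The alternatives also use the same 3 arrays, so the shared sign is not separate evidence. The counts that moved are given here, and the cause was not tested unless the alternative itself leaves genes out.

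Normexp left 14 liver transcripts lower at 70 nmol than in control cells (23 in the report) and 0 lower at 35 nmol than in control cells, with medians of -0.75 (70 nmol against control), 1.13 (35 nmol against control) and -1.53 (70 against 35 nmol). For other liver genes it gave 1 higher and 1 lower at 70 nmol, 8 higher at 35 nmol, and 1 higher and 18 lower between doses. Cyclic loess gave 0 transcripts lower at 35 nmol. The stricter filter tests fewer genes. It left 13 transcripts lower at 70 nmol than in control cells, medians of -0.248 and, between doses, -0.93, and other liver genes at 1 higher and 2 lower at 70 nmol and 1 higher and 18 lower between doses. The looser filter gave 1 transcript higher at 70 nmol than in control cells, Hnf4a, and a median of -3.44 between doses. Other liver genes then numbered 6 higher and 35 lower at 70 nmol, 3 lower at 35 nmol, and 1 higher and 52 lower between doses. By the looser flag 20 transcripts were seen at 70 nmol, in place of 9.

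Spike-in scaling moved the median of all genes to -0.32 at 70 nmol and -0.38 at 35 nmol against control. The transcripts' medians became -2.16 and 1.08, and other liver genes numbered 1 higher at 70 nmol, and 19 higher and 2 lower at 35 nmol. At 3-fold, 12 transcripts were higher and 0 lower at 35 nmol, and other liver genes numbered 1 higher and 3 lower at 70 nmol, 13 higher at 35 nmol, and 0 higher and 21 lower between doses. At 1.5-fold, 2 other liver genes were lower at 35 nmol. Without close families, 21 of 26 transcripts were lower at 70 than at 35 nmol, with 1.79% over all genes.

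At 70 nmol 18 of the 23 lower transcripts have only a bound, which signal over background sets. No paired analysis was possible because there is 1 array per group, and for the same reason no replicate could be left out. All-gene counts at 2-fold were 107 higher and 74 lower with normexp at 70 nmol against control, in place of 319 and 287, and 1104 and 1570 with the looser filter.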

Other observations

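Of the 19 genes that stood at or above level 0 at 35 nmol and were not well above background at 70 nmol, 12 were liver transcripts of the report and 3 came from the further liver list. The other 4 belonged to no list and were named after their values were seen. They were 1300017J02Rik, with levels of -1.58 in control cells and 0.28 at 35 nmol, Mup3, a major urinary protein gene, with -1.59 in control cells and 0.04 at 35 nmol, and Akr1c6, an aldo-keto reductase gene, with -3.19 in control cells and 0.03 at 35 nmol. The carboxylesterase gene Ces3b was at 0.03 at 35 nmol and not well above background in control cells.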
